A study of Rattus norvegicus with 9 samples.

Results

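The genes described here were level between 5 and 14 days post lesion (dpl) in demyelinated rat white matter and higher at 28 dpl, and are called late-rising genes below. They were chosen from the authors' normalized array values by 3 conditions: a mean at 28 dpl at least 0.6 above the mean at 14 dpl on the log2 scale, a lowest 28 dpl array above the highest 14 dpl array, and a 14 minus 5 dpl difference of means between -0.3 and 0.3. Of 7574 measured genes, each represented by its brightest probe, 78 met the rule. Because these conditions use every difference between the time points, the values of the 78 genes at those times are a description, and no p-value of a time difference is given for them.

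The caudal cerebellar peduncle, white matter that joins the hindbrain to the cerebellum, was demyelinated with 0.1% ethidium bromide in Sprague Dawley rats that were 12 weeks old at the lesion. Ethidium bromide is a toxin that kills oligodendrocytes and astrocytes where it is injected. Lesions were cut from frozen brains by laser capture at 5, 14 and 28 dpl, and each time point had 3 replicates on Illumina arrays. No unlesioned peduncle was among the 9 arrays, so each time point is read against the others, and nothing in the labels says whether the replicates were separate animals. A captured lesion mixes cell types, and in such bulk RNA a change in the number of cells of a type cannot be told apart from a change in RNA per cell.

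A demyelinated tract is repaired when oligodendrocyte progenitors enter the lesion, divide, differentiate and wrap the bare axons in new membrane. That membrane is rich in cholesterol, which the brain makes itself because lipoproteins of the blood do not cross the blood-brain barrier, and cholesterol supply can limit the rate of myelination. Microglia and macrophages clear myelin debris early in this sequence, and astrocytes return to the lesion, supply lipids and metabolites to other glia and form a network through gap junctions.

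One array stood apart from its group, and results that rest on it are given with and without it. The mean of 42 neuron, axon and synapse genes, relative to the mean of the 9 arrays, was 0.83 on 5 dpl replicate 1, against -0.31 and -0.18 on the other 5 dpl arrays. The mean of 12 markers of cerebellar granule and Purkinje cells was 1.24 on that array, against -0.34 and -0.11. Astrocyte genes were also higher there, at -0.35 against -1.10 and -1.10. Among the 78 late-rising genes, 5 dpl replicate 1 lay over 0.5 above both other 5 dpl arrays in 18 cases and above every 14 dpl array in 34. Without that array 80 genes met the rule, of which 55 were among the 78.

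**Figure D1:**
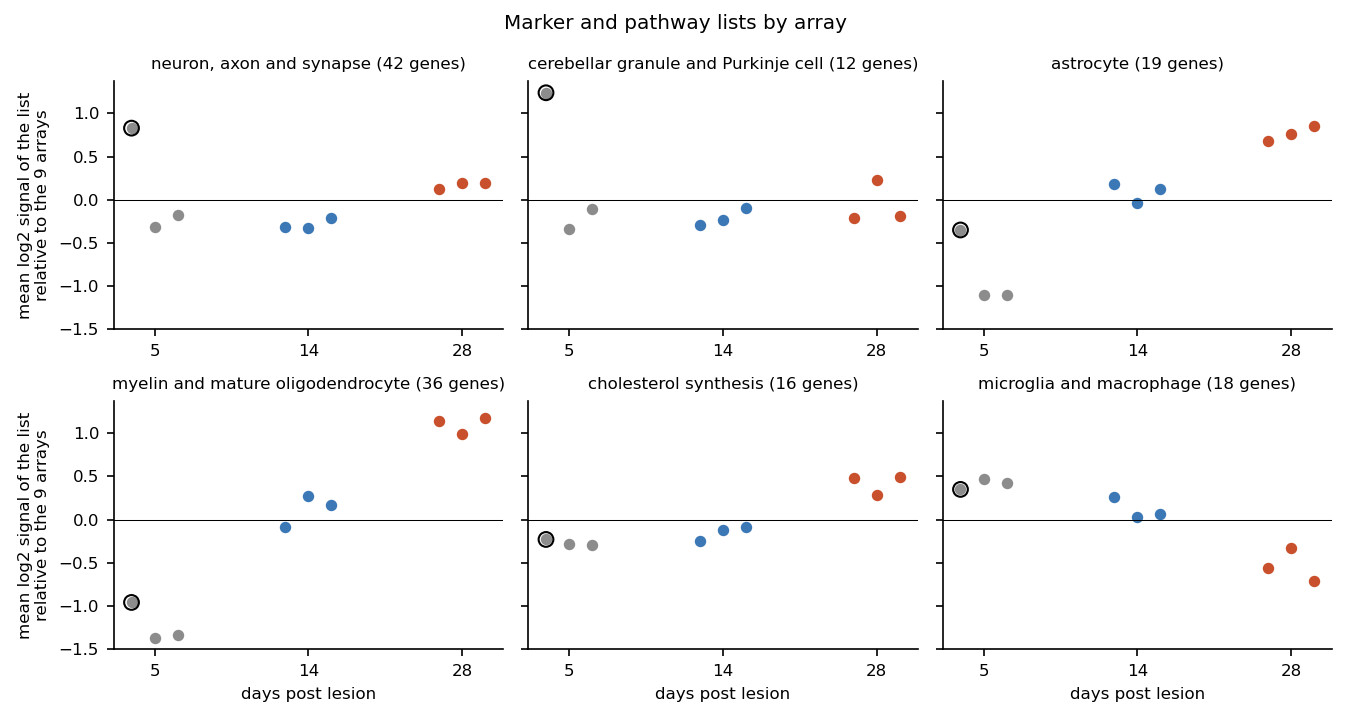
Mean log2 signal of 6 gene lists on each array, relative to the mean of the 9 arrays, against days post lesion. Points are arrays and the black ring marks 5 dpl replicate 1, which is highest of the 9 for the neuron list (0.83) and the cerebellar neuron list (1.24).

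The 78 genes differed between 28 and 14 dpl by 0.60 to 1.71, with a median of 0.76, which is 1.52-fold to 3.27-fold. The median over all 7574 genes was -0.01. A difference of at least 1 was seen in 15 genes. Relative to each gene's 14 dpl mean, the median over the 78 genes was 0.74, 0.76 and 0.87 on the 28 dpl arrays. The same median was -0.04, 0.02 and 0.02 on the 14 dpl arrays, and 0.08, -0.21 and -0.17 on the 5 dpl arrays. The 28 dpl arrays were thus close to each other, while 5 dpl replicate 1 was the highest 5 dpl array in 58 of the 78 genes. The small differences between 14 and 5 dpl were positive in 58 genes and negative in 20.

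In 69 of the 78 genes the lowest 28 dpl array lay above all 6 earlier arrays. Over all measured genes this held for 13.4%, but the rule fixes much of the count and nothing is read from it. In the other 9 genes 5 dpl replicate 1 reached the lowest 28 dpl array, and against the remaining earlier arrays all 78 were higher. The values of 27 genes met the rule whichever of the 9 arrays was left out. At 14 dpl 4 genes, Grip2, Gpx2, Mfsd4a and Slc24a2, were not above the estimated background on any array, and at 28 dpl every one of the 78 was above it on at least 1 array. Only 57 of the 78 were above background on all 9 arrays, as were 5787 of the 7574 measured genes. Samd12 and Scn4b, for example, were above it on 1 array at 5 dpl and 1 at 14 dpl. For genes with earlier arrays at background, a level course from 5 to 14 dpl is less certain.

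**Figure D2:**
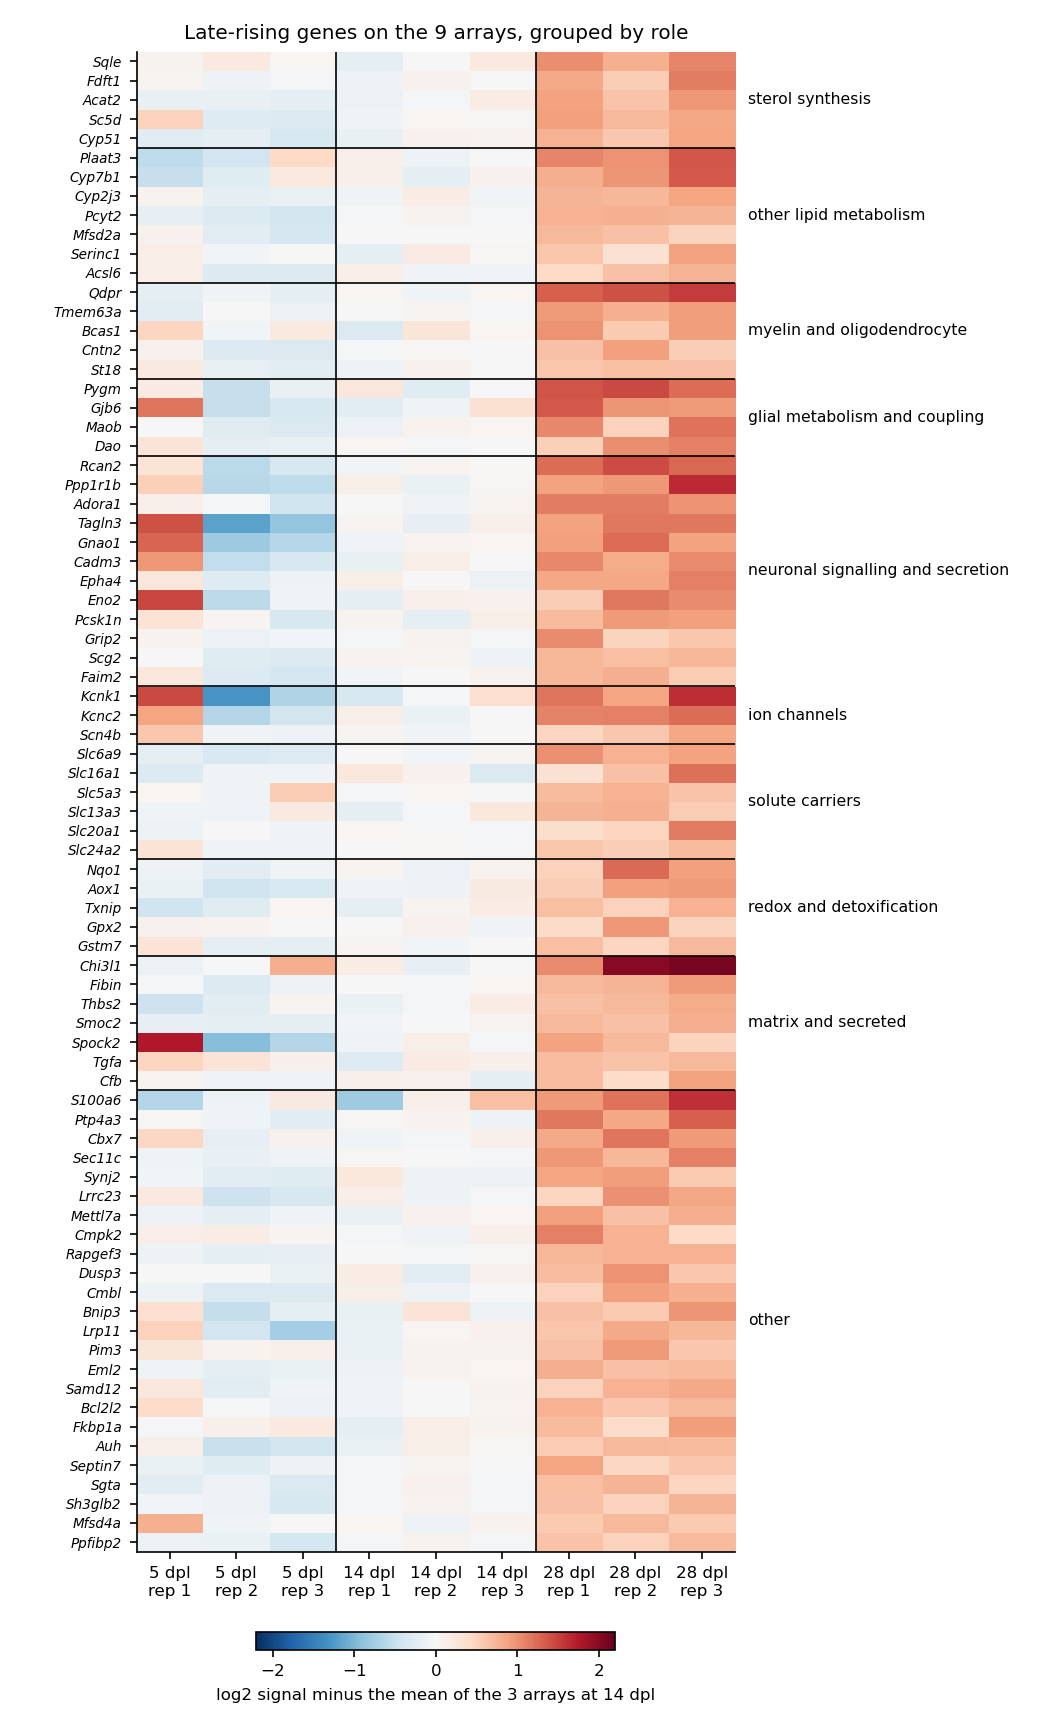
Log2 signal of the 78 late-rising genes (rows, grouped by role) on the 9 arrays (columns), relative to each gene's mean at 14 dpl. Red is higher and blue lower; the 28 dpl columns are red throughout, and 5 dpl replicate 1 is red in several neuronal, channel and glial genes.

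One group of the late-rising genes makes sterols. Cholesterol is built from acetyl-CoA through mevalonate, squalene and lanosterol, and 5 enzymes spread along that path were late-rising, with 28 minus 14 dpl differences of 0.75 to 0.96. All 5 met the rule without 5 dpl replicate 1, and their median signal on that array exceeded the other 5 dpl arrays by only 0.05.

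Acat2, the cytosolic thiolase of the entry step, had signals of 10.21, 10.21 and 10.19 at 5 dpl, 10.25, 10.34 and 10.55 at 14 dpl and 11.26, 11.01 and 11.34 at 28 dpl. Its 28 minus 14 dpl difference was 0.83 (SE 0.10, from limma, with n = 3 at each time). Each SE here and below uses a spread shared over 5, 14 and 28 dpl, so a 5 dpl array that stands apart enlarges it. Fdft1, squalene synthase, had 8.18, 8.01 and 8.10 at 5 dpl, 8.02, 8.22 and 8.14 at 14 dpl and 8.96, 8.67 and 9.26 at 28 dpl, a difference of 0.84 (SE 0.13). In both genes the 6 earlier arrays formed a narrow band below all 28 dpl arrays. Sqle, squalene epoxidase, an enzyme that limits the rate of the later path, had 9.30, 9.44 and 9.26 at 5 dpl, 9.00, 9.22 and 9.44 at 14 dpl and 10.25, 10.01 and 10.29 at 28 dpl, a difference of 0.96 (SE 0.12). Cyp51, the lanosterol demethylase, had 7.91, 7.93 and 7.79 at 5 dpl, 7.99, 8.24 and 8.22 at 14 dpl and 8.92, 8.74 and 9.02 at 28 dpl. Its difference of 0.75 (SE 0.09) followed a smaller 14 minus 5 dpl difference of 0.27, close to the limit of the window. Sc5d, a desaturase of the last steps, had 9.25, 8.45 and 8.44 at 5 dpl, 8.67, 8.78 and 8.77 at 14 dpl and 9.64, 9.46 and 9.59 at 28 dpl, a difference of 0.82 (SE 0.19). It was the sterol gene in which 5 dpl replicate 1 stood out, above every 14 dpl array.

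Of the other 11 measured genes of the pathway, 6 passed the test of 28 against 14 dpl upwards and 0 downwards, where limma called 7.74% of all genes higher and 8.15% lower at an adjusted p under 0.05. At an unadjusted p under 0.05 the counts were 8 and 0, where 14.7% of all genes were called higher and 16.7% lower. Over all 10552 probes, limma called 7.49% higher and 7.48% lower at 28 than at 14 dpl, 10.7% higher and 10.1% lower at 14 than at 5 dpl, and 20.2% higher and 24.1% lower at 28 than at 5 dpl. The median difference of all 16 genes on the list was 0.66. Dhcr7, the reductase that completes cholesterol, rose by 0.62 (SE 0.07, limma adjusted p = 0.00167) and Tm7sf2, a sterol reductase, rose by 0.70 (SE 0.10, limma adjusted p = 0.0032). Idi1, which isomerises isopentenyl diphosphate, rose by 0.90 (SE 0.18, limma adjusted p = 0.0118) and Msmo1, a sterol oxidase, by 0.94 (SE 0.21, limma adjusted p = 0.0194). These 4 genes had 14 minus 5 dpl differences of 0.38, 0.56, 0.33 and 0.48, above the limit of 0.3, and so were outside the late-rising set. Fdps and Pmvk, enzymes of the early path, rose by 0.52 and 0.48 (limma adjusted p = 0.00993 and 0.00943), under the 0.6 required. The 5 genes that did not pass, Nsdhl, Hsd17b7, Mvd, Ebp and Stard4, had differences of 0.36, 0.18, 0.16, 0.04 and -0.01. Idi1 and Msmo1 were lower on 28 dpl replicate 2 than on the other 28 dpl arrays, as was each of the 5 late-rising sterol genes.

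**Figure D3:**
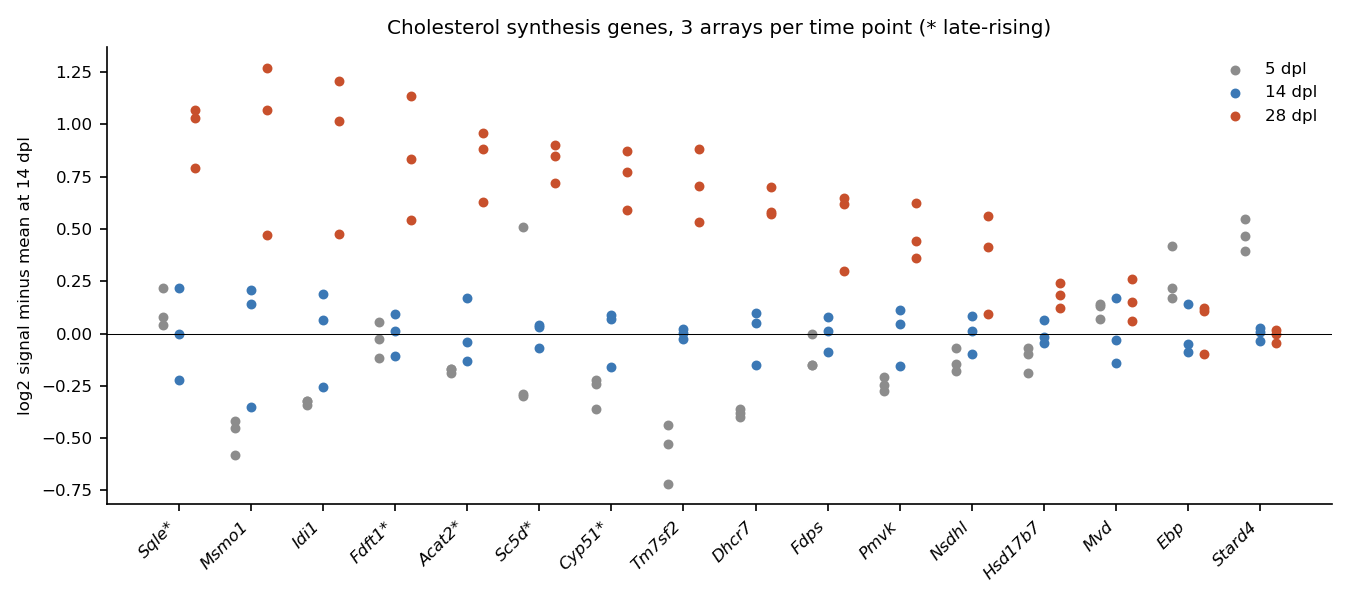
Log2 signal of the 16 measured cholesterol synthesis genes on each array, relative to each gene's mean at 14 dpl, in order of the 28 minus 14 dpl difference. Grey, blue and orange points are arrays at 5, 14 and 28 dpl, and asterisks mark the 5 late-rising genes. The rule keeps their 5 and 14 dpl means close, but in Sc5d 5 dpl replicate 1 lies well above the 14 dpl points.

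Sterol genes are known targets of the SREBP transcription factors, which bind sterol elements near the transcription start. The 250 bases before the start were searched on both strands for a short core of that element, TCACNCC, in RefSeq promoters of assembly GRCr8. Promoters were in the table for 58 of the 78 genes and for 6275 of the 7574 measured genes. The core was in 13 of the 58 (22.4%) and in 13.6% of the promoters of measured genes. Acat2 held it at position -100 relative to the start, Cyp51 at -145, and Pcyt2, an enzyme of phosphatidylethanolamine synthesis, at -233, each on the strand opposite the gene. Plaat3 and Cyp2j3, which also act on lipids, held it too. The others that held it had other roles: Kcnc2, Adora1, Cadm3, Dusp3, Eml2, Cntn2, Slc13a3 and Gpx2. Sc5d had no match in this window, and Sqle and Fdft1 were not searched, having no promoter in the table. The windows of 40 bases below, from Acat2 at chr1:50100724-50100763 (plus strand), Cyp51 at chr4:30991532-30991571 (plus strand) and Pcyt2 at chr10:106394678-106394717 (minus strand), are shown because these late-rising lipid enzymes share the same letters. They were chosen after the values were seen, and capitals mark the match, read 5′ to 3′ on the strand of the gene.
Acat2: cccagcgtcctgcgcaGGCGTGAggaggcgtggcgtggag
Cyp51: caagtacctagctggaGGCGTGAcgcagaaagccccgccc
Pcyt2: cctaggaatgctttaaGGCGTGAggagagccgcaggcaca
All 3 matches read GGCGTGA and overlapped no other motif searched. A match describes the sequence and does not show binding.

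Another 7 late-rising genes act on lipids. Plaat3, a phospholipase and acyltransferase, differed most, with 10.96, 11.11 and 11.96 at 5 dpl, 11.64, 11.42 and 11.51 at 14 dpl and 12.60, 12.51 and 12.89 at 28 dpl, a 28 minus 14 dpl difference of 1.14 (SE 0.23). Its 5 dpl arrays were spread, with replicate 3 above the 14 dpl arrays. Cyp7b1, which hydroxylates oxysterols, had a difference of 1.04 (SE 0.20), and its 28 dpl arrays at 9.82, 9.99 and 10.38 were above all earlier ones. Pcyt2 had 8.61, 8.49 and 8.38 at 5 dpl, 8.74, 8.86 and 8.77 at 14 dpl and 9.56, 9.57 and 9.53 at 28 dpl, a difference of 0.76 (SE 0.07) with 28 dpl arrays that were almost equal. Its 14 minus 5 dpl difference was 0.295, just inside the window, and 0.35 without 5 dpl replicate 1. Cyp2j3, an arachidonic acid epoxygenase, differed by 0.78, and Mfsd2a, a carrier of lysolipids with docosahexaenoic acid that is typical of brain endothelium, by 0.62. Serinc1, which is linked to the incorporation of serine into membrane lipids, and Acsl6, a long-chain acyl-CoA synthetase of brain, differed by 0.61 each.

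Acsl6 was the 1 late-rising gene among 18 of fatty acid and sphingolipid synthesis. Of the other 17 genes, 6 passed the test upwards and 0 downwards (9 and 1 at an unadjusted p under 0.05). Scd2, a fatty acid desaturase, rose by 0.70 (limma adjusted p = 0.011) and Ugt8, which makes the myelin lipid galactosylceramide, by 0.97 (limma adjusted p = 0.0181). Both were already higher at 14 than at 5 dpl, by 1.04 and 2.38. Acss2, which makes acetyl-CoA from acetate, rose by 0.28 and Acsl3 by 0.91 (limma adjusted p = 0.0109 and 0.0265). The count of 6 became 2, 4 and 3 without 14 dpl replicate 1, 2 and 3 in turn, 3 without 28 dpl replicate 3 and 4 with the replicate number as a block.

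Another 5 late-rising genes are tied to oligodendrocytes or to myelinated axons. Qdpr, dihydropteridine reductase, which recycles the cofactor tetrahydrobiopterin and is abundant in mature oligodendrocytes, had 7.97, 8.09 and 7.95 at 5 dpl, 8.20, 8.08 and 8.20 at 14 dpl and 9.48, 9.56 and 9.69 at 28 dpl. Its 28 minus 14 dpl difference of 1.42 (SE 0.07) was the second largest among the 78, and all 6 earlier arrays lay more than 1 below the 28 dpl arrays. Tmem63a, a mechanosensitive channel whose human gene is mutated in a hypomyelinating disorder, had 10.62, 10.86 and 10.74 at 5 dpl, 10.85, 10.93 and 10.82 at 14 dpl and 11.80, 11.65 and 11.78 at 28 dpl, a difference of 0.87 (SE 0.07). Both genes met the rule with any 1 array left out. Bcas1, a marker of oligodendrocytes that are starting to myelinate, had 12.92, 12.39 and 12.65 at 5 dpl, 12.13, 12.71 and 12.49 at 14 dpl and 13.43, 13.02 and 13.36 at 28 dpl, a difference of 0.82 (SE 0.18) with a wider spread at each time. Cntn2, an adhesion molecule beside the node of Ranvier, and St18, a zinc finger transcription factor, were dim, with differences of 0.70 (SE 0.12) and 0.65 (SE 0.11).

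Most measured myelin genes had another time course. Of the 36 genes on the myelin and mature oligodendrocyte list, 2 were late-rising (Qdpr and Bcas1), and 24 had the same rise after 14 dpl together with a 14 minus 5 dpl difference above 0.3. Of the 34 not late-rising, 25 passed the test of 28 against 14 dpl upwards and 1 downwards. Klk6, a protease of mature oligodendrocytes, rose by 2.07 after a 14 minus 5 dpl difference of 1.46, and Gsn, gelsolin, by 1.40 after 0.89 (limma adjusted p = 0.00014 and 7.82e-05). S1pr5, a sphingosine phosphate receptor, rose by 1.37 after 1.68 (limma adjusted p = 0.000483). Hapln2, a link protein of the nodal matrix, had 9.04, 8.33 and 8.25 at 5 dpl, 7.94, 7.71 and 7.84 at 14 dpl and 10.61, 10.97 and 10.66 at 28 dpl, and rose by 2.91 (SE 0.20, limma adjusted p = 0.000187) after a 14 minus 5 dpl difference of -0.71 that left it outside the window. Among 14 genes of the node, paranode and lectican matrix, Cntn2 was late-rising, and of the other 13 genes 2, Hapln2 and Mag, passed the test upwards and 0 downwards (3 and 0 at an unadjusted p under 0.05).

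The promoters of Qdpr and, further below, Chi3l1 are shown because these genes differed most among the late-rising genes and their promoters held motifs searched. The Qdpr promoter is the 250 bases before the RefSeq start, at chr14:69882526-69882775 on the plus strand of GRCr8. Capitals mark GC boxes (GGGCGG, at -198, -89, -75 and -58), a CCAAT box on the opposite strand (ATTGG) and AGAACA, a core of glucocorticoid receptor elements, on the opposite strand (TGTTCT).
Qdpr: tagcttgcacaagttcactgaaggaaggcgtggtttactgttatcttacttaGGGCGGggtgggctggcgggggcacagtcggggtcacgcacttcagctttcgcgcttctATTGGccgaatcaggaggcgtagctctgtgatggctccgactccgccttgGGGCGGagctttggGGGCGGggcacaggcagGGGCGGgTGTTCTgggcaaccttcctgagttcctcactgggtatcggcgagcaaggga
GC boxes were in 63.8% of the promoters of the late-rising genes and in 57.7% of those of measured genes, and CCAAT in 36.2% and 35.7%. AGAACA was in 10.3% and 11.3%, and ACAAAG, a SOX core, in 17.2% and 11.8%. AGGTCA, the core to which retinoid X receptors and their partners bind, was in 10.3% of the promoters of late-rising genes and in 11% of those of measured genes. TATAAA was in 1 late-rising promoter, that of Nqo1 (1.7%), and in 7.3% of the promoters of measured genes. CTGGNAC, a core of the oligodendrocyte factor MYRF, was in 15.5% and 15%, TGACGTC, a cyclic AMP element, in 6.9% and 5.0%, and TTGGCA, a core of NFI sites, in 6.9% and 9.6%. The median GC content was 62.4% in late-rising promoters and 59.6% in all of them.

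Chi3l1 differed most of the 78 genes. It encodes a secreted chitinase-like protein made by reactive astrocytes and macrophages. Its signals were 8.13, 8.26 and 9.05 at 5 dpl, 8.41, 8.08 and 8.27 at 14 dpl and 9.29, 10.25 and 10.35 at 28 dpl, a 28 minus 14 dpl difference of 1.71 (SE 0.31), or 3.27-fold. The 28 dpl arrays were spread over about 1, and 5 dpl replicate 3 stood above the other earlier arrays. Without 5 dpl replicate 1 the 14 minus 5 dpl difference was -0.40, outside the window. Its promoter, at chr13:48193589-48193838 on the plus strand of GRCr8, held 1 of the motifs searched, a CCAAT box at -110, in capitals.
Chi3l1: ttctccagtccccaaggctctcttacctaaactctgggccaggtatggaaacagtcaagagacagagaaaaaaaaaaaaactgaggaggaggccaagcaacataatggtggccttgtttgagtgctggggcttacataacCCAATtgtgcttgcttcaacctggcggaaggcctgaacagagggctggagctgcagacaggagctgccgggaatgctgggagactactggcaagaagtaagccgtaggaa
No GC box was found in this window, in contrast to Qdpr, and its GC content was 51.2%, against 61.2% for Qdpr.

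**Figure D4:**
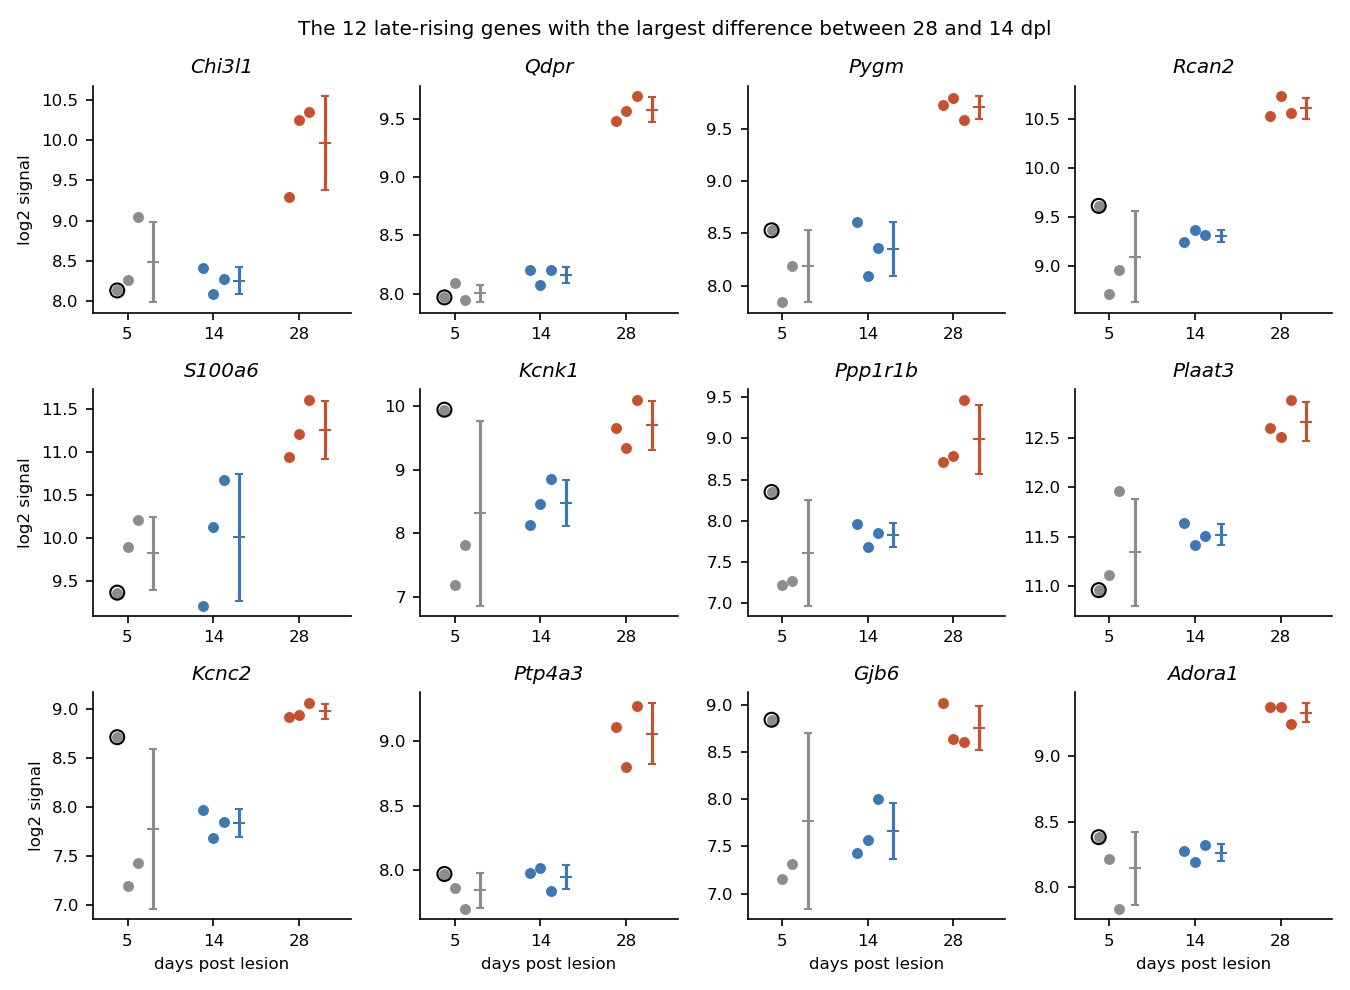
Log2 signal against days post lesion for the 12 late-rising genes with the largest 28 minus 14 dpl difference. Points are arrays, bars are mean and SD (n = 3), and the black ring marks 5 dpl replicate 1, which lies within the 28 dpl range in Kcnk1 (9.94) and Gjb6 (8.84).

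Genes of the extracellular matrix and of secreted signals made up 6 more members. Thbs2 and Smoc2, matricellular proteins, differed by 0.72 each (SE 0.13 and 0.06). Smoc2 was not above the estimated background on any 5 dpl array, where it read 7.08, 7.05 and 7.07, and had 7.98, 7.90 and 8.07 at 28 dpl, against 7.20, 7.27 and 7.32 at 14 dpl. Fibin, a secreted protein, had a difference of 0.80 and met the rule with any 1 array left out. Tgfa, a ligand of the EGF receptor, had 10.65, 10.47 and 10.30 at 5 dpl, 9.90, 10.36 and 10.29 at 14 dpl and 10.87, 10.81 and 10.89 at 28 dpl. Its difference of 0.67 (SE 0.13) came after a 14 minus 5 dpl difference of -0.29, at the lower limit of the window, so its 14 dpl mean was the lowest of the 3. Cfb, factor B of the alternative complement pathway, differed by 0.66. Spock2, a brain proteoglycan, had 10.88 on 5 dpl replicate 1, above all of its 28 dpl arrays, which averaged 9.82 ± 0.20 (SD, n = 3), and its other earlier arrays lay between 8.19 and 9.25.

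Markers of other cell types were read beside these genes. None of the 18 measured microglia and macrophage genes was late-rising, and 0 passed the test upwards (0 at an unadjusted p under 0.05) while 10 passed it downwards. Their mean score was -0.56, -0.33 and -0.71 on the 28 dpl arrays, against 0.26, 0.03 and 0.07 on the 14 dpl arrays. P2ry12, a receptor of resting microglia, fell by 1.30 (SE 0.12, limma adjusted p = 0.000584). Of 14 meningeal and fibroblast genes 1, Fmod, passed the test upwards and 0 downwards (3 and 0 at an unadjusted p under 0.05). The upward count was 4 without 5 dpl replicate 1, and 0 with cyclic loess and in several settings that left out another array. Their score was 0.44, 0.57 and 0.44 at 28 dpl, against -0.26, 0.07 and 0.59 at 14 dpl, so the arrays of the times overlapped. The part of these cells in the differences of the secreted and matrix genes was not tested.

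Glial metabolism and coupling was represented by 4 late-rising genes, whose median difference was 1.00. Pygm, glycogen phosphorylase, which mobilises the glycogen that brain stores mainly in astrocytes, had 8.53, 7.84 and 8.19 at 5 dpl, 8.61, 8.09 and 8.36 at 14 dpl and 9.73, 9.80 and 9.59 at 28 dpl, a difference of 1.35 (SE 0.18). Gjb6, a connexin of astrocyte gap junctions, had 8.84, 7.16 and 7.31 at 5 dpl, 7.43, 7.57 and 8.0 at 14 dpl and 9.02, 8.64 and 8.60 at 28 dpl, a difference of 1.08 (SE 0.40). On 5 dpl replicate 1 Gjb6 was within its 28 dpl range, and without that array the 14 minus 5 dpl difference was 0.44 and the gene left the set. Maob, a monoamine oxidase of astrocytes, differed by 0.92 (SE 0.17), and Dao, a D-amino acid oxidase of cerebellar astrocytes, by 0.88 (SE 0.17). Both met the rule with any 1 array left out, as Gjb6 and Pygm did not.

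Of 19 astrocyte genes, Gjb6 and the glycine transporter gene Slc6a9 were late-rising, and 8 met the same conditions on the rise with a 14 minus 5 dpl difference above 0.3. Among the other 17 genes, 4 passed the test of 28 against 14 dpl upwards and 0 downwards (11 and 0 at an unadjusted p under 0.05), and 9 passed upwards without 5 dpl replicate 1, where limma called 10.7% of all genes higher and 10% lower. S100b rose by 1.5, Gfap, the intermediate filament of astrocytes, by 0.95, and Clu, clusterin, by 1.38 (limma adjusted p = 0.00276, 0.00458 and 0.0161), after 14 minus 5 dpl differences of 1.83, 1.94 and 2.04. Mlc1, a membrane protein of astrocyte endfeet, rose by 0.44 (limma adjusted p = 0.0097). The mean astrocyte score was 0.68, 0.76 and 0.85 at 28 dpl, against 0.18, -0.04 and 0.12 at 14 dpl, and its part in the differences of these 4 late-rising genes was not tested.

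Neuronal signalling and secretion was the role given to the most late-rising genes apart from the mixed other group, at 12 genes. Of these only Eno2 and Scg2 were on the neuron, axon and synapse list, so a shared cell type is not shown. On 5 dpl replicate 1 the median signal of the 12 genes exceeded the mean of the other 5 dpl arrays by 0.68, against 0.20 for all 78 late-rising genes. With it their median 14 minus 5 dpl difference was 0.08, and without it 0.34, so 7 of the 12 left the window. Over all 7574 genes both medians were -0.02.

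Tagln3, a neuronal transgelin, had 10.88, 8.29 and 8.61 at 5 dpl, 9.53, 9.30 and 9.59 at 14 dpl and 10.36, 10.63 and 10.64 at 28 dpl, a 28 minus 14 dpl difference of 1.07 (SE 0.56). Gnao1, a G protein subunit abundant in neurons, had 10.97, 8.89 and 9.05 at 5 dpl, 9.59, 9.74 and 9.72 at 14 dpl and 10.59, 10.92 and 10.57 at 28 dpl, a difference of 1.01 (SE 0.46). The SD of Tagln3 was 1.41 at 5 dpl, 0.15 at 14 dpl and 0.16 at 28 dpl. For Gnao1 these were 1.16, 0.08 and 0.20, so the spread at 5 dpl enlarges the SE of both genes. Without 5 dpl replicate 1 both were also higher at 14 than at 5 dpl, with differences of 1.02 and 0.71. Eno2, the neuronal enolase, had 11.25, 9.20 and 9.70 at 5 dpl, 9.58, 9.89 and 9.88 at 14 dpl and 10.33, 10.94 and 10.83 at 28 dpl, and met the rule in only 4 of the 9 settings that left out 1 array. Rcan2, an inhibitor of calcineurin, had 9.61, 8.71 and 8.95 at 5 dpl, 9.24, 9.36 and 9.31 at 14 dpl and 10.53, 10.73 and 10.56 at 28 dpl, a difference of 1.30 (SE 0.19), which placed all 28 dpl arrays clear of the earlier ones. Ppp1r1b, a dopamine-regulated phosphatase inhibitor, differed by 1.16 (SE 0.31) on its brightest probe. Its second probe, at 7.43 to 7.59 and near background, differed by -0.05. Cadm3, an axonal adhesion molecule, and Faim2, an inhibitor of neuronal cell death, differed by 0.97 and 0.69, and each left the window without 5 dpl replicate 1.

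In this group 5 genes met the rule without that array. Adora1, an inhibitory adenosine receptor, had 8.38, 8.21 and 7.83 at 5 dpl, 8.27, 8.19 and 8.32 at 14 dpl and 9.38, 9.38 and 9.25 at 28 dpl, a difference of 1.08 (SE 0.13) with well separated groups. Epha4, an ephrin receptor, differed by 0.93 (SE 0.14) and Pcsk1n, which encodes a neuroendocrine protease inhibitor, by 0.84 (SE 0.16). Scg2, a secretogranin of dense-core vesicles, was dim at 7.35, 7.08 and 7.04 at 5 dpl, 7.43, 7.40 and 7.21 at 14 dpl and 8.07, 8.0 and 8.07 at 28 dpl. Grip2, a scaffold of glutamate receptors, was not above the estimated background on any earlier array and was at least 1.53-fold higher at 28 than at 14 dpl.

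Of the 42 genes on the neuron, axon and synapse list, Eno2 and Scg2 were late-rising, and 12 were lower by more than 0.3 at 14 than at 5 dpl and then met the same conditions on the rise as the 78. Without 5 dpl replicate 1, 5 of these 12 still had a 14 minus 5 dpl difference below -0.3, 6 were level and 1 was above 0.3. Among the other 40 genes 1, Sncg, gamma-synuclein, passed the test of 28 against 14 dpl upwards, by 0.94 (SE 0.16, limma adjusted p = 0.00707), and 0 passed downwards, with 10 and 1 at an unadjusted p under 0.05. With that array left out, 17 passed upwards and 1 downwards, against the 10.7% and 10% of all genes given for that setting. The neuron score was 0.13, 0.20 and 0.20 on the 28 dpl arrays, against -0.31, -0.33 and -0.21 on the 14 dpl arrays. Markers of cerebellar granule and Purkinje cells, which the tissue cut around a peduncle could hold, were at -0.21, 0.23 and -0.19 at 28 dpl, against -0.29, -0.23 and -0.10 at 14 dpl, and 0 of 12 passed in either direction (1 and 1 at an unadjusted p under 0.05). The part of neurons captured with the lesion in the differences of these genes was not tested.

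Ion channel genes were 3, and 2 of them depended on the same array. Kcnk1, a background potassium channel, had 9.94, 7.18 and 7.81 at 5 dpl, 8.13, 8.46 and 8.85 at 14 dpl and 9.65, 9.34 and 10.10 at 28 dpl, a difference of 1.22 (SE 0.60). Kcnc2, a potassium channel of fast-spiking neurons, had 8.71, 7.20 and 7.43 at 5 dpl, 7.97, 7.69 and 7.85 at 14 dpl and 8.92, 8.94 and 9.06 at 28 dpl, a difference of 1.14 (SE 0.33), and its second probe, near background, differed by 0.12. In both genes 5 dpl replicate 1 was far above the other 5 dpl arrays, and without it the 14 minus 5 dpl differences were 0.98 and 0.52. Their SDs were 1.45 and 0.82 at 5 dpl, 0.36 and 0.14 at 14 dpl, and 0.38 and 0.08 at 28 dpl. The spread at 5 dpl thus enlarges the SE of both. Scn4b, an auxiliary sodium channel subunit, differed by 0.64 and met the rule without that array. It was dim, above background on 1 array at 5 dpl and 1 at 14 dpl. On 5 dpl replicate 1 it read 7.83, within its 28 dpl range of 7.71 to 8.10. Of the other 65 channel and transmitter receptor genes 2, the chloride channel gene Clcn2 and Kcnj14, passed the test upwards and 2, Kcnj5 and Gabrr2, downwards, with 7 and 2 at an unadjusted p under 0.05. Without 5 dpl replicate 1, 9 passed upwards and 2 downwards, and 1 passed upwards with the replicate number as a block and without 28 dpl replicate 1, 28 dpl replicate 3 or any 1 of the 14 dpl arrays.

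**Figure D5:**
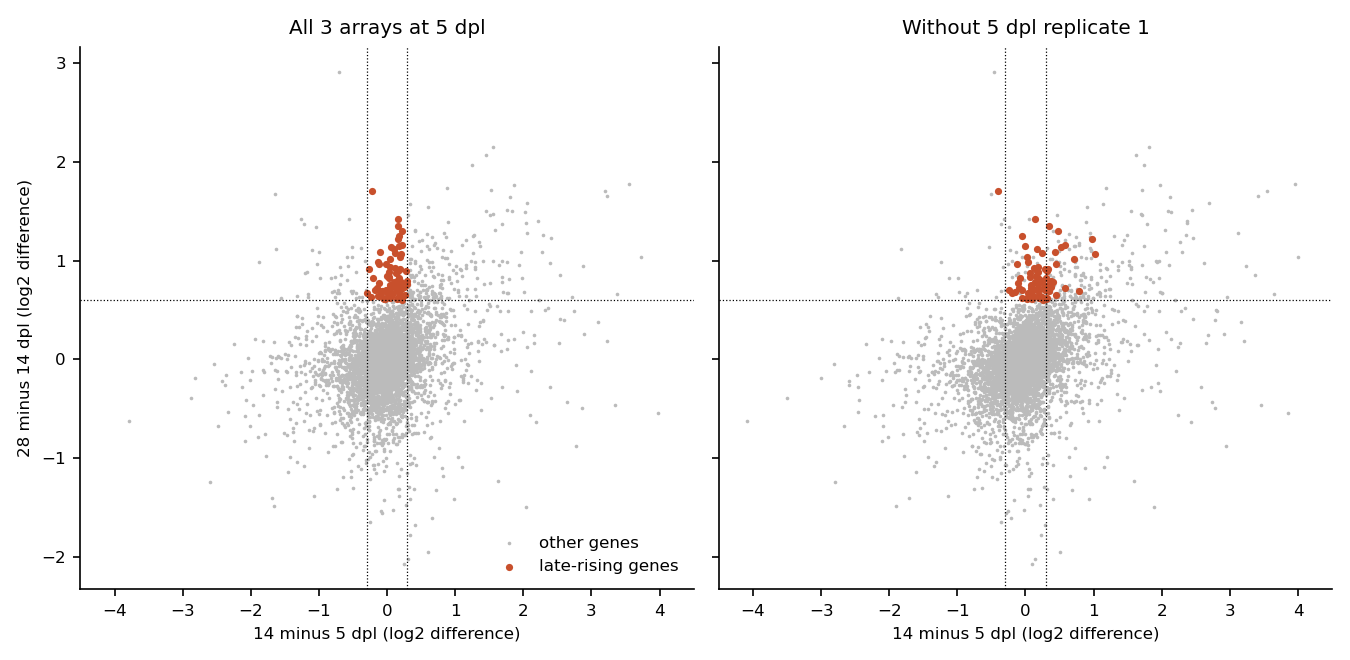
The 28 minus 14 dpl difference (log2) against the 14 minus 5 dpl difference (log2) for the 7574 genes, with all 3 arrays at 5 dpl (left) and without 5 dpl replicate 1 (right). The 78 late-rising genes are orange and dotted lines are the limits of the rule; on the right 22 of them lie beyond 0.3 and 1, Chi3l1, below -0.3.

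Among solute carriers 6 were late-rising, with a median of -0.12 for 5 dpl replicate 1 minus the other 5 dpl arrays. Slc6a9, the glycine transporter, had 7.36, 7.23 and 7.28 at 5 dpl, 7.57, 7.5 and 7.63 at 14 dpl and 8.58, 8.34 and 8.45 at 28 dpl, a difference of 0.89 (SE 0.07). Its 14 minus 5 dpl difference of 0.277 was near the upper limit. Slc16a1, the lactate and ketone body transporter through which oligodendrocytes feed axons, had 10.49, 10.70 and 10.70 at 5 dpl, 11.01, 10.87 and 10.47 at 14 dpl and 11.11, 11.42 and 11.99 at 28 dpl. Its 28 dpl replicates were spread, and the gap of 0.11 between the lowest 28 dpl array and the highest 14 dpl array was the smallest among the 78. Slc5a3, a myo-inositol transporter, differed by 0.70, Slc13a3, a dicarboxylate transporter, by 0.70 and Slc20a1, a phosphate transporter, by 0.67. Slc24a2, a sodium, calcium and potassium exchanger, was not above the estimated background at 14 dpl and was at least 1.44-fold higher at 28 dpl. Among the other 160 genes of the solute carrier list 14 passed the test upwards and 8 downwards (31 and 25 at an unadjusted p under 0.05), and the list's median was 0.00. Without 5 dpl replicate 1, 21 passed upwards and 13 downwards, and without 14 dpl replicates 1 and 3 the upward count was 9 and 8. Slc6a8, the creatine transporter, rose by 1.11 (limma adjusted p = 0.0014), while Slco2b1, next by p-value among these genes, fell by 1.42 (limma adjusted p = 0.00196).

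Redox and detoxification genes were 5. Nqo1, a quinone reductase and a known target of the NRF2 factor, had 9.64, 9.50 and 9.66 at 5 dpl, 9.81, 9.63 and 9.83 at 14 dpl and 10.27, 11.01 and 10.66 at 28 dpl, a difference of 0.89 (SE 0.16). Txnip, which inhibits thioredoxin, had the highest 28 dpl mean signal of the 78, at 13.77, and a difference of 0.64 (SE 0.14). The lowest was that of Slc24a2, at 7.82, though signals of different probes do not rank their genes. Aox1, an aldehyde oxidase, and Gstm7, a glutathione transferase, differed by 0.80 and 0.62. Gpx2, a glutathione peroxidase, was not above background at 14 dpl and was at least 1.45-fold higher at 28 dpl. On 5 dpl replicate 1 these 5 genes differed from the mean of the other 5 dpl arrays by -0.33 (Txnip) to 0.48 (Gstm7), with a median of 0.06, and Aox1, at 0.24, left the set without that array. Of 62 genes of the respiratory chain and ATP synthase none was late-rising, and 0 passed the test upwards and 1 downwards (1 and 6 at an unadjusted p under 0.05).

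The other 24 genes had varied functions and a median difference of 0.73. S100a6, a calcium-binding protein of astrocytes and fibroblasts, had 9.37, 9.90 and 10.21 at 5 dpl, 9.22, 10.13 and 10.68 at 14 dpl and 10.94, 11.21 and 11.61 at 28 dpl, a difference of 1.25 (SE 0.36) with wide spread at every time. Ptp4a3, a phosphatase, had 7.97, 7.86 and 7.70 at 5 dpl, 7.98, 8.02 and 7.84 at 14 dpl and 9.11, 8.80 and 9.27 at 28 dpl, a difference of 1.11 (SE 0.12), and Cbx7, a Polycomb protein, differed by 0.98 (SE 0.15). Both met the rule with any 1 array left out. Sec11c, a subunit of the signal peptidase, had 12.25, 12.17 and 12.25 at 5 dpl, 12.36, 12.34 and 12.32 at 14 dpl and 13.29, 13.07 and 13.44 at 28 dpl, a difference of 0.93 (SE 0.09) over a nearly flat earlier course. Rapgef3, an exchange factor activated by cyclic AMP, had 7.59, 7.51 and 7.52 at 5 dpl, 7.72, 7.66 and 7.73 at 14 dpl and 8.43, 8.47 and 8.47 at 28 dpl, and its SE of 0.05 was the smallest of the 78.

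Regulators of kinases, lipids and trafficking in this group included Dusp3, a dual-specificity phosphatase (0.75), Pim3, a survival kinase (0.72), and Synj2, a phosphoinositide phosphatase (0.78), each value being the 28 minus 14 dpl difference. Genes of mitochondria and cell survival were Bnip3 (0.73), Bcl2l2 (0.69), Cmpk2 (0.77) and Auh (0.65). Bnip3 and Auh left the window without 5 dpl replicate 1. Cytoskeletal and scaffold genes were Septin7 (0.64), Eml2 (0.71), Sh3glb2 (0.63) and Ppfibp2 (0.60). Fkbp1a, a prolyl isomerase, differed by 0.68 and Sgta, a co-chaperone, by 0.63. Mettl7a differed by 0.78 on its brightest probe and by 0.16 on a second probe near background. The remaining genes, Lrrc23, Cmbl, Lrp11, Samd12 and Mfsd4a, had differences of 0.63 to 0.78. Of these, Lrrc23, Cmbl and Lrp11 also left the window without that array, and Mfsd4a was at least 1.44-fold higher at 28 dpl, having been not above background at 14 dpl.

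The 78 genes were 1 of 3 classes with the same rise after 14 dpl. In all 313 genes (4.13% of 7574) the 28 dpl mean was at least 0.6 above the 14 dpl mean with arrays that did not overlap, and arrays failed to overlap in this direction, at any size, in 19.3% of genes. Of the 313, 191 were also higher by more than 0.3 at 14 than at 5 dpl, 44 were lower by more than 0.3, and 78 were level. Without 5 dpl replicate 1, the same 313 genes divided into 213, 20 and 80. No gene met both conditions on the means while its 14 and 28 dpl arrays overlapped. Genes of the cell cycle list went the other way between 14 and 28 dpl: 0 of 20 passed the test upwards (0 at an unadjusted p under 0.05), 17 passed downwards, and none was late-rising.

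The limits on the differences of means had genes close on both sides, while the condition on separate arrays excluded no gene that met the others. Ppfibp2 at 0.602, Slc24a2 at 0.614 and Acsl6 at 0.614 were just above the 0.6 required, and Wdr54 at 0.594, Cd82 at 0.585 and Ncdn at 0.584 just below. Aox1 at 0.298 was just inside the upper limit of the 14 minus 5 dpl window, while Zfp180 at 0.303, Fam81a at 0.309 and Cldn10 at 0.311 were just outside. Cldn10, an astrocyte and epithelial claudin, had a 28 minus 14 dpl difference of 1.46, more than all late-rising genes but Chi3l1. At the lower limit Tgfa at -0.290, Eno2 at -0.267 and Mfsd4a at -0.235 were inside, and Acsl1 at -0.305, Lrrn1 at -0.316 and Nfil3 at -0.370 outside. Of the arrays' separation Slc16a1, Serinc1 and S100a6 had the smallest gaps, at 0.11, 0.17 and 0.26.

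Membership of the class turned on 5 dpl replicate 1 more than on any other array. Without it, 23 of the 78 left the set, and in 22 of these it was the highest 5 dpl array. In their place 25 genes joined, 23 of which had read higher on that array than on the other two. Chosen after the values were seen, examples are Calb1, a calcium-binding protein of Purkinje cells (28 minus 14 dpl difference 0.88), Syp, synaptophysin (0.83), Nefm, a neurofilament (0.67), Chgb, a chromogranin (1.09), Stmn3, a neuronal stathmin (0.86), and Rbfox1, a neuronal splicing factor (0.97). On all arrays these 6 genes had 14 minus 5 dpl differences of -1.18, -0.76, -0.45, -1.0, -0.68 and -1.02. S100a4 and Fstl3 joined without being higher on that array. Of the 78 genes, 55 stayed. By role these were all 5 sterol synthesis genes, 4 of 5 oligodendrocyte genes, 5 of 6 solute carriers and 4 of 5 redox genes. They also included 5 of 7 other lipid genes, 5 of 7 matrix and secreted genes and 19 of 24 other genes. Fewer stayed among glial metabolism genes (2 of 4), neuronal signalling genes (5 of 12) and ion channels (1 of 3).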

How the data were processed

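Gene expression was measured on 9 Illumina arrays, 3 at each of 5, 14 and 28 dpl, grouped by their labelled time point. All values per gene are the authors' normalized signals, deposited for 10552 probes. The deposited values lie on a log2 scale, with a median of 8.31 on every array and a lowest value of 6.87. How the authors transformed and filtered them is not stated in the labels or headers, so how far differences of dim genes are compressed is unknown. A raw table of 22226 targets was used for its detection p-values alone, which the authors deposited per target and array. Its 9 signal columns were not used here, because their names give the time point but no replicate. From 8727 to 9330 targets were detected per array (p at most 0.01). Exactly 10552 targets were detected on at least 1 array, and the background of the normalized signals was estimated, at 7.26 to 7.29, by taking these to be the same probes. The tables share 0 identifiers, so this could not be checked. Precision is limited by the small number of arrays.

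The platform annotation names 7679 probes and leaves 2873 unnamed here, and 7670 of the named have an identifier in the RefSeq table (GRCr8). They make 7574 genes, of which 103 have several probes, and the brightest was used. Promoter positions are RefSeq's; the build of the array design is not stated.

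Time points were compared in limma 3.58.1 (lmFit and eBayes, R 4.3.3) over all 9 arrays and all 10552 probes, with Benjamini-Hochberg adjustment and a threshold of 0.05. The procedure was tested on simulated data. The late-rising genes and the 21 gene lists were chosen with earlier results of these data known, and roles were assigned to the genes after their values were seen. Named genes are the 12 with the largest 28 minus 14 dpl difference, up to 4 late-rising genes and 4 others with the smallest p in each list, the 3 on each side of each limit of the rule, and those with the highest and lowest 28 dpl mean; other late-rising genes are named to account for all 78. For a gene not above background on any 14 dpl array the fold is a bound, written "at least": the 28 dpl mean against the mean over arrays of the higher of its own value and the background. Where replicates were not separate animals, p-values describe technical spread. Alternatives were other limits and probes, medians, a filter on dim probes, cyclic loess, array weights, an intensity trend, fewer time points, a replicate block and leaving out each array.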

Additional observations from a re-analysis of the deposited data

How the results depend on the processing

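With a required difference of 0.8 instead of 0.6, 31 genes met the rule. Other settings gave 58 (a window of -0.2 to 0.2), 78 (every probe, or only genes above background on all 28 dpl arrays), 82 (medians, with 48 of the 78 genes shared) and 82 (cyclic loess, 76 shared). Leaving out each array in turn gave 71 to 91 genes, with 55 to 73 of the 78 shared. The cause was not tested.

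Probes called numbered 1579 for 28 against 14 dpl, and 836 to 2050 with 1 array left out. The count was 836 and 1013 without 14 dpl replicates 1 and 3, and 957 and 863 without 28 dpl replicates 1 and 3. They numbered 2193 for 14 against 5 dpl, and 1285 to 2579 (1285 and 1370 without 14 dpl replicates 2 and 3), and 4677 for 28 against 5 dpl, and 3874 to 4929. List genes called between 28 and 14 dpl numbered 124, and 82 to 181, the lowest without 14 dpl replicate 1. These include late-rising genes, whose selection used the same contrast; the other list genes called numbered 106, and 70 to 160 with 1 array left out. The other settings kept these 4 counts within 1.5 times. Among genes not late-rising, neuron genes called higher numbered 1, but 17 without 5 dpl replicate 1 or with only 14 and 28 dpl fitted, and 9 with array weights. Astrocyte genes called higher numbered 4, and 9 in each of these settings. Of the 11 cholesterol genes 6 were called higher, and 5 to 8 over all settings.

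Same-numbered replicates did not deviate together: their correlations between time points were -0.29 to 0.15, and the main fit did not pair them. These correlations cannot decide whether same-numbered arrays shared a batch. With the replicate number as a block, 1070, 1744 and 4277 probes were called for 28 against 14, 14 against 5 and 28 against 5 dpl, and 104 list genes.

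The late-rising genes were selected on the same 9 arrays that describe them. With 3 arrays per time point, genes near background, at 7.26 to 7.29, carry little signal to separate from it.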

Other observations

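Several lists that could mark other cells or states held no late-rising gene. For 28 against 14 dpl, 1 of 11 oligodendrocyte progenitor genes, Sox8, passed the test upwards and 0 downwards (3 and 0 at an unadjusted p under 0.05). None of the 8 Schwann cell genes passed in either direction (2 and 0 unadjusted). The mean Schwann score was 0.91, 0.53 and 0.80 at 28 dpl, against 0.13, 0.64 and 0.61 at 14 dpl. Of 39 interferon and antigen presentation genes 0 passed upwards and 4 downwards (2 and 9 unadjusted), among them RT1-DMb, an antigen-loading chain, which fell by 0.78 (limma adjusted p = 0.00992). Of 13 T, B and natural killer cell genes 0 passed upwards and 1, Cd8b, downwards (0 and 1 unadjusted). In the list of glucocorticoid and stress response genes Mt3, a brain metallothionein, rose by 1.65 and Fkbp5 fell by 0.51 (limma adjusted p = 0.00441 and 0.00762). Of 6 choroid plexus and ependyma genes 1, F5, passed upwards and 0 downwards (1 and 1 unadjusted), and of 6 erythrocyte genes 0 passed in either direction (0 and 0 unadjusted). Among 13 endothelial and pericyte genes Mfsd2a was late-rising, and of the other 12 genes 0 passed in either direction (1 and 1 unadjusted).

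Among the 2873 probes that the platform annotation leaves unnamed here, 28 met the values of the rule.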
